A study of Caenorhabditis elegans with 2 samples.

Results

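The 10 genes described here, grouped as repressive chromatin and MES genes, encode histone methyltransferases, methyl-mark readers and partner subunits of Caenorhabditis elegans. They are mes-2, mes-3, mes-6, mes-4, met-1, met-2, set-25, lin-61, hpl-1 and hpl-2, and they were chosen by name, as 10 of the 19973 protein-coding genes and 46890 genes of all kinds in the Ensembl annotation of the WBcel235 (ce11) assembly. What was measured is the occupancy of chromatin by tagged SNU-23, a splicing factor named after the yeast tri-snRNP protein Snu23, by chromatin immunoprecipitation and sequencing (ChIP-seq). A peak was given to a gene where its summit was no more than 500 bp from the annotated 5' end or was inside the gene. In the text below, a gene with a summit of the authors' final list within 500 bp of its 5' end is called marked.

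Both libraries belong to 1 group and are 2 biological replicates, so the data hold no second condition to compare with. The animals were hermaphrodites of strain OP528, taken as L1 larvae that had been synchronised by starvation after bleaching, 6 h after that point. OP528 carries wgIs528, a transgene of snu-23 tagged with TY1, EGFP and 3xFLAG and accompanied by unc-119(+), in the unc-119 (tm4063) background. The sonicated chromatin was precipitated with an antibody to GFP, so it reports the tagged copy of SNU-23 only. Whole larvae were used, and which cells carried a given peak cannot be told apart. No untagged strain or input sample was analysed here, and whether a control entered the authors' signal values is unknown.

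The 3 layers of chromatin these genes serve are well known in the worm. MES-2, MES-3 and MES-6 form its counterpart of Polycomb repressive complex 2, which methylates histone H3 at the lysine written H3K27, while MES-4 and MET-1 methylate the lysine H3K36. MES-4 is best known for passing the memory of germline transcription to the next generation, and loss of any of the mes genes in the mother leaves her offspring sterile. On the lysine H3K9, MET-2 places the lower methylation states and SET-25 the trimethyl state, and LIN-61, HPL-1 and HPL-2 are chromatin proteins linked to that methylation. Many worm genes have a further feature that matters for reading any map around 5' ends: their transcripts receive a spliced leader in trans, so the annotated 5' end can be a splice acceptor and not the start of transcription.

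The DNA just upstream of the annotated 5' end is shown for 3 marked genes and 3 unmarked ones, since the contrast between them is what the peak values below describe. Each sequence is the strand of the gene, 5' to 3', ending at the base before the annotated 5' end, from the RefSeq WBcel235 (ce11) genome. A stretch is 300 bases long, or shorter where an exon of the neighbouring gene begins. Capitals mark, on either strand, the letters TTTCAG with which many worm introns end. They also mark the word TTCGCGC, which mes-2 and mes-4 share, and the repeated word GTGCGGCG of set-25. The marked genes were mes-2 (chrII:14383673-14383972, plus strand), mes-6 (chrIV:8510984-8511283, plus strand) and set-25 (chrIII:13293091-13293390, minus strand). The unmarked ones were mes-4 (chrV:13437546-13437845, minus strand), met-2 (chrIII:8375173-8375299, plus strand) and hpl-2 (chrIII:10755531-10755623, minus strand).
mes-2: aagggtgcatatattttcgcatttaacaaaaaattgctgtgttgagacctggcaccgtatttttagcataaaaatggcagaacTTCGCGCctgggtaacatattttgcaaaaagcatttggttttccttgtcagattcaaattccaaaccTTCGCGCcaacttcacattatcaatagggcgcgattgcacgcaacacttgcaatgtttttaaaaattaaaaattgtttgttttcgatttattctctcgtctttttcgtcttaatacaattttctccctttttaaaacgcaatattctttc
mes-6: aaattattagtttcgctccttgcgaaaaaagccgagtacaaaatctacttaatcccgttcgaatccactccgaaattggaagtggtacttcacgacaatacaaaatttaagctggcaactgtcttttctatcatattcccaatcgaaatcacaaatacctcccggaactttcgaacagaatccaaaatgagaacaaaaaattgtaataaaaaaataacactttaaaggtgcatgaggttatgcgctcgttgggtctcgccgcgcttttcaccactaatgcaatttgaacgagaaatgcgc
set-25: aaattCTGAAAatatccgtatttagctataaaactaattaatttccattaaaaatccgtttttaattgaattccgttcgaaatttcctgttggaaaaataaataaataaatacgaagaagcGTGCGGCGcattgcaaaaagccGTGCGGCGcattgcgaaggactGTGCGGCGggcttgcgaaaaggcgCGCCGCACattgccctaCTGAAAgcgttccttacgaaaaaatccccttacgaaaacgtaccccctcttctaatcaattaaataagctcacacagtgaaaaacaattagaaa
mes-4: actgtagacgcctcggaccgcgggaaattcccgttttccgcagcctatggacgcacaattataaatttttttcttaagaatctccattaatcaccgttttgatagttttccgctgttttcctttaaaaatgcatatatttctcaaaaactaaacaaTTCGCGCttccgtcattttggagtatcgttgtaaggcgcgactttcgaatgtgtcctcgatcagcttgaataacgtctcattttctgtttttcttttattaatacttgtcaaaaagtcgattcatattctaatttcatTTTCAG
met-2: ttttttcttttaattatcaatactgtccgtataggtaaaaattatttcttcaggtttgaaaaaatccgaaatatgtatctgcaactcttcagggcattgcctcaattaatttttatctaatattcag
hpl-2: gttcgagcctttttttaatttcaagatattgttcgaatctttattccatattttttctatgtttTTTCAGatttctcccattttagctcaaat

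The mes-4 and met-2 stretches both ended in AG, the last bases of an intron, and that of mes-4 ended in the full TTTCAG. Among the members only these had an upstream stretch that ended so, and neither gene was marked. Over all coding genes, however, 27.6% of the stretches ended in AG, and those genes were marked more often, 26.8% of 5510 against 13.0% of the 14463 others. The word TTCGCGC lay in the mes-2 stretch at -217 and -150 bp and in the mes-4 stretch at -144 bp, on the gene's strand each time. It was in 2.09% of the 300-base stretches of all coding genes on either strand, and 35.2% of the 418 genes with it were marked against 16.4% of the rest. In the set-25 stretch GTGCGGCG was repeated at -179, -157 and -135 bp, with a copy on the opposite strand at -111 bp. Only 83 coding genes, or 0.416%, had that word, and 52 of these (62.7%) were marked against 16.6% of those without it. The words and the AG endings were picked after the sequences had been seen, and a match describes letters, not binding.

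Of the 10 genes, 6 were marked: mes-2, mes-3, mes-6, met-1, set-25 and lin-61. Over all coding genes the share was 16.8%, or 3355 of 19973. Counting summits inside genes as well left the members at 6, against 20.9% of coding genes, because no member had a final summit in its body beyond 500 bp. The 4 unmarked genes were mes-4, met-2, hpl-1 and hpl-2. The genes of the H3K27 complex were all marked, those of the H3K36 and H3K9 enzymes 1 of 2 in each case, and those of the methyl-mark readers 1 of 3. Groups of 2 or 3 genes are too small for a difference between them to be read.

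**Figure D1:**
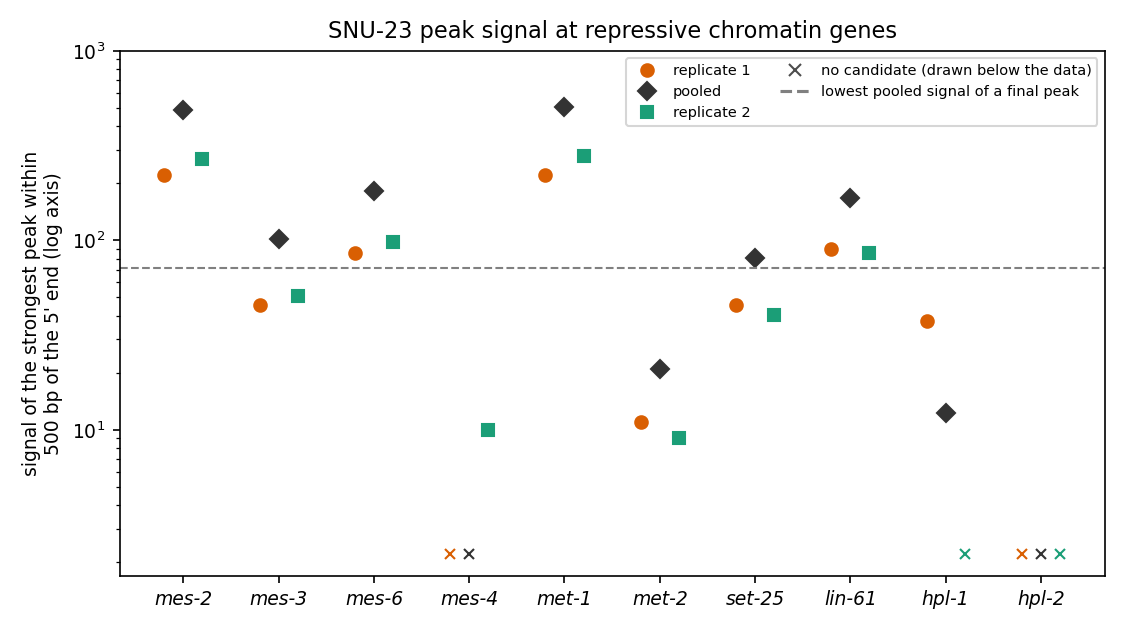
Signal of the strongest peak within 500 bp of the annotated 5' end of each gene, on a log axis, in replicate 1 (circles), the pooled reads (diamonds) and replicate 2 (squares); a cross drawn below the data means that a list held no candidate there, and the dashed line is the lowest pooled signal of a final peak, 71.7. The pooled diamonds of 6 genes lie above the line, those of met-2 and hpl-1 below it, and mes-4 and hpl-2 have none.

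Signals are the authors' value for each peak, and their scale differs between the lists, so a pooled value is not to be read against a replicate value. The final list held 6675 peaks with signals from 71.7 to 2804 and a median of 158, and rank 1 is its strongest. Beneath it lay 30000 candidate peaks each for the pooled reads and the 2 replicates, most of which the authors did not retain, with median signals of 21.0, 11.5 and 12.8. All final peaks stood at the highest -log10 q-value of the pooled list, 4.38. The median ratio of replicate 2 over replicate 1 was 1.15-fold across the 6593 final peaks with a match in each, or 0.20 on the log2 scale, with an SD of 0.43. The spread around that median is the replicate error against which single peaks are set below. With 2 replicates of 1 group, no test of a single peak was made.

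mes-2 (WBGene00003220, chromosome II, 14383973 to 14388454, plus strand), whose product is the catalytic subunit and homolog of Drosophila Enhancer of zeste, had the strongest peak of the H3K27 complex. Its final peak ran from 14383706 to 14383973 with the summit at -129 bp, and its signal of 486 ranked 652. In replicate 1 the signal was 222 at rank 675, and in replicate 2 it was 267 at rank 614. The 2 summits, at -131 and -129 bp, were nearly at the same base, and the log2 ratio of 0.27 lay within 1 SD of the median of all matched peaks. The summit fell between the second TTCGCGC of the printed stretch and the gene.

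mes-6 (WBGene00003224, chromosome IV, 8511284 to 8513469, plus strand) encodes the counterpart of the Polycomb protein ESC/EED. Its peak covered 8511143 to 8511365 and had its summit at -29 bp, nearer to the 5' end than the strongest final peak of any other member. The signal was 183 (rank 2841) in the final list, 86.0 in replicate 1 and 98.2 in replicate 2. Those replicate summits, at -40 and -15 bp, straddled the pooled one. None of the searched words lay in its upstream stretch, where the share of G and C was 38.7%.

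mes-3 (WBGene00003221, chromosome I, 4996835 to 5003202, plus strand), for the remaining subunit of the complex, had a weaker peak, from 4996477 to 4996872 with its summit at -160 bp. A signal of 101 gave it rank 5070. The replicate signals were 45.5 and 50.9, with summits at -146 and -179 bp and a log2 ratio of 0.16. Replicate 1 also had a candidate at 55 bp inside the first coding exon, with a signal of 16.3. By signal, then, the genes of this complex differed by several-fold: mes-2 stood at the 84.6 percentile of the 3355 marked coding genes, mes-6 at the 43.1 and mes-3 at the 14.9, and this order was the same in each replicate.

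Of the H3K36 enzymes, met-1 (WBGene00016603, chromosome I, 4254197 to 4264699, plus strand), a homolog of the elongation-coupled enzyme SETD2, had the highest final signal of all 10 genes. The authors' peak from 4253880 to 4254387 was listed with 2 summits. One lay at -125 bp with a signal of 507 (rank 591), and the other lay at 79 bp in the untranslated part of the first exon with a signal of 120 (rank 4381). For the upstream summit the replicates gave 222 and 280, and for the downstream one 44.9 and 64.2. Their log2 ratios were 0.33 and 0.52, at the 67.2 and 83.5 percentiles of all matched peaks and within 1 SD of their median. met-1 and mes-2 had replicate 1 signals that were equal to 3 digits and adjacent ranks, 674 and 675, so their order was not resolved there.

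met-1 lies at the end of a row of genes on its own strand. Upstream of it come C43E11.12 after a gap of 57 bp, cogc-5 after 71 bp more and tufm-2 after another 77 bp. At the 5' end of tufm-2 stood a final peak with a signal of 335 (rank 1220). Within 500 bp of their own 5' ends, C43E11.12 had a pooled candidate with a signal of 7.92, and cogc-5 had one of 5.79 in replicate 1 only. The upstream summit of met-1, its stronger one, lay inside C43E11.12, in an intron 67 bp before the annotated 3' end of that gene. By position the signal of 507 was thus over the neighbouring gene, 830 bp from its 5' end, as well as at the 5' end of met-1. Neither C43E11.12 nor cogc-5 had a final summit within 500 bp of its own 5' end. No other marked member had a final summit inside another gene.

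mes-4 (WBGene00003222, chromosome V, 13433050 to 13437545, minus strand), the H3K36 enzyme of the germline, had no final, pooled or replicate 1 peak by the rule. Its single candidate was in replicate 2, at -327 bp, with a signal of 9.97 at rank 17926 and a -log10 q-value of 1.40. The nearest final summit was 8103 bp upstream. This was the gene whose upstream stretch ended in TTTCAG, and its coding start lay 32 bp past the 5' end. The enzymes for the same lysine thus differed from the top of the members to below the authors' threshold.

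Among the H3K9 enzymes, set-25 (WBGene00012802, chromosome III, 13283824 to 13293090, minus strand) was marked near the lower edge of the final list. One final peak, from 13293099 to 13293220, had its summit at -47 bp and a signal of 81.0 (rank 6094). The other, from 13293143 to 13293538, had its summit at -251 bp and a signal of 77.8 (rank 6272). The lowest signal in that list is 71.7, and set-25 stood at the 4.98 percentile of the marked coding genes. Replicate 1 had both summits, with signals of 45.7 and 38.0. Replicate 2 had the farther one, with 40.2 at rank 6650, and no candidate matched to the nearer. The nearer summit, the stronger of the 2, was thus matched in 1 library only. The copies of GTGCGGCG in the printed stretch lie between the 2 summits.

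met-2 (WBGene00019883, chromosome III, 8375300 to 8380848, plus strand), the homolog of SETDB1, was represented in all candidate lists and not in the final one. The pooled candidate lay at 24 bp, inside the first coding exon, with a signal of 21.0 at rank 14989, which is the median of the pooled list to 3 digits. Replicate 1 had its candidate at 51 bp, at rank 15556, and replicate 2 at 31 bp, at rank 19236 with a signal of 9.01. The 5' end of met-2 lies 127 bp past the end of lmbr-1 on the same strand. Within 500 bp of its own 5' end, lmbr-1 had pooled, replicate 1 and replicate 2 candidates of 49.8, 31.0 and 27.0. These were above those of met-2 in each list and also short of the final one.

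Of the genes for methyl-mark readers, lin-61 (WBGene00003041, chromosome I, 7248827 to 7251282, minus strand) was marked. It encodes a protein of malignant brain tumour repeats that binds methylated H3K9. Its peak, from 7251612 to 7251795, had a signal of 167 (rank 3151), with 89.9 in replicate 1 and 85.2 in replicate 2. At -399 bp its summit was the farthest from a 5' end among the marked members, and the replicate summits of -361 and -434 bp were spread more widely than for any other member. The interval between lin-61 and its divergent neighbour bub-1, which encodes a spindle checkpoint kinase, is 658 bp. The same summit was at -260 bp from bub-1, so bub-1 was the nearer gene. With each summit given to the nearest 5' end only, lin-61 was not marked, and the member count was 5 against 12.1% of coding genes.

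hpl-1 (WBGene00001995, chromosome X, 13245390 to 13247044, plus strand) encodes a protein of the heterochromatin protein 1 (HP1) family. Its replicates differed in whether a candidate was present by the rule at all. Replicate 1 had a candidate at -22 bp with a signal of 37.7 at rank 6262, within the strongest 6675 of that replicate, whereas replicate 2 had none. The pooled candidate was at 145 bp in an intron, with a signal of 12.3 and a -log10 q-value of 0.69. Of the strongest 6675 peaks of replicate 1, 105 (1.57%) overlapped no candidate of replicate 2 at all. A call at hpl-1 would thus rest on 1 library.

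The other end of hpl-1 had a stronger peak. A final peak from 13247030 to 13247255 had its summit 109 bp past the annotated 3' end, with a signal of 177 (rank 2939). Its signals were 78.4 in replicate 1 and 96.8 in replicate 2, and the summits were within 1 bp of each other. No gene of any kind had a 5' end within 500 bp of it. hpl-1 was the 1 member with a final summit in the 500 bp past its 3' end, where 4.87% of coding genes had one. This position was looked at after the values had been seen.

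hpl-2 (WBGene00001996, chromosome III, 10752195 to 10755530, minus strand), the other gene for an HP1-family protein, had no candidate in any of the 4 lists. It begins 93 bp after the end of rnf-113 on the same strand, which had no candidate within 500 bp of its 5' end. Beyond rnf-113 comes K01G5.10, with a pooled candidate of 8.23 within the same distance of its 5' end. The nearest final summit to hpl-2 was 3723 bp upstream, at tasp-1, and had a signal of 2479, the rank 2 of the whole list. The gene without any candidate thus lay a few kilobases from one of the strongest peaks of the genome.

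**Figure D2:**
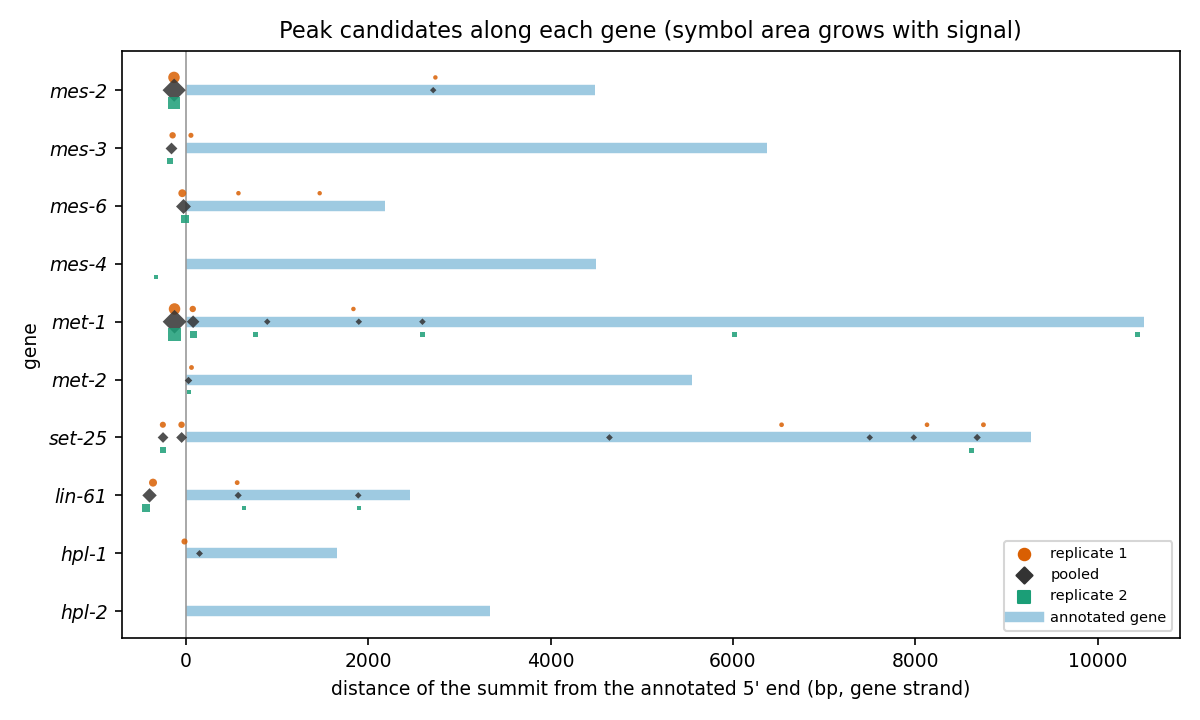
Position of every peak candidate by the rule along each gene, in bp from the annotated 5' end on the gene strand, in replicate 1 (circles), the pooled reads (diamonds) and replicate 2 (squares), with symbol area growing with the signal and the gene drawn as a bar. The large symbols lie just upstream of the 5' ends of mes-2 and met-1, and the candidates inside the genes are small.

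In the candidate lists, 8 of the 10 genes had a pooled candidate by the rule, against 40.7% of coding genes. Replicate 1 also had 8, against 43.1%, and replicate 2 had 8, against 42.9%. The replicate sets were not the same: mes-4 was in that of replicate 2 only and hpl-1 in that of replicate 1 only. When as many peaks were taken from each replicate alone as the final list holds, the strongest of replicate 1 marked 7 members against 17.1% of coding genes, the addition being hpl-1. The strongest of replicate 2 marked the same 6 as the final list, against 17%.

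Of the 6 marked members, 5 had their strongest final peak matched in both replicates. Their median log2 ratio of replicate 2 over replicate 1 was 0.19, with an SD of 0.16, or 1.14-fold. That is close to the 1.15-fold of all matched peaks, so these peaks followed the difference in scale between the replicates. lin-61 was the exception in sign, with a log2 ratio of -0.08, also within 1 SD of the median of all.

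**Figure D3:**
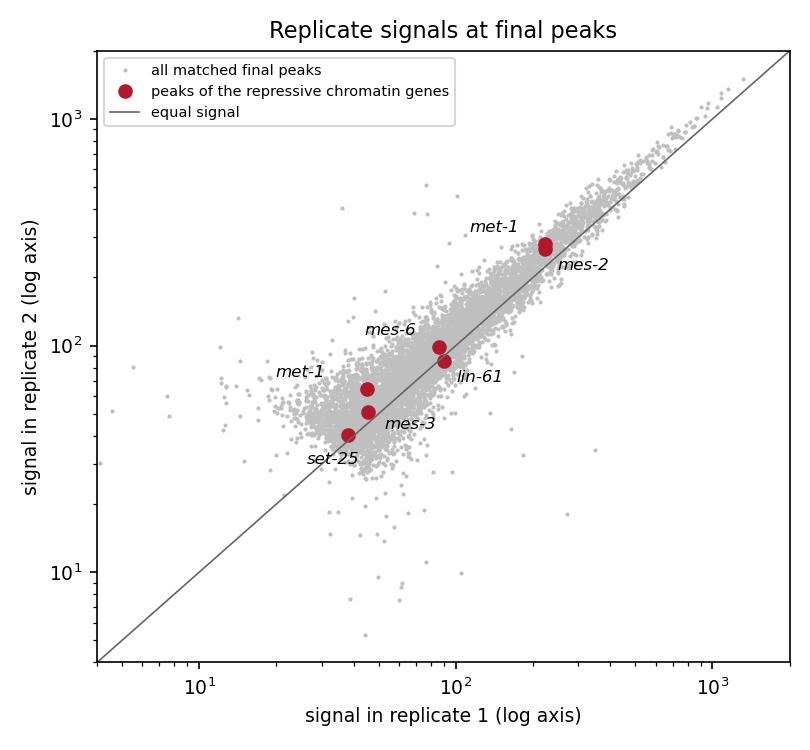
Signal of replicate 2 against that of replicate 1, both on log axes, at all 6593 matched final peaks (grey) and at the 7 matched peaks of the repressive chromatin genes (red), with the line of equal signal. The red points lie within the grey cloud, 6 of them above the line, and the peaks of mes-2 and met-1 nearly coincide.

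Marked members had a median signal of 175, below the 210 of all marked coding genes, and a median rank of 2996 against 2386. The summit of the strongest peak was upstream of the 5' end in 6 of 6, as it was in 90.1% of marked coding genes. Its median distance was -127 bp, against -168 bp over all marked coding genes. Measured from the start codon, the members' median was -175.5 bp. By signal the marked members ran from the 4.98 percentile of marked coding genes, at set-25, to the 86.3, at met-1.

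Inside the genes, more than 500 bp from the 5' end, signals were low. The final list had no summit there in any member, against 5.82% of coding genes with at least 1. Among the pooled candidates 10 summits lay in 4 members (mes-2, met-1, set-25 and lin-61), against 23.3% of coding genes, with signals from 6.58 to 18.2. Of these, 4 were in introns and 6 in exons, and only 2 were matched in both replicates. The highest was in set-25 at 8678 bp, near its 3' end, with 18.2 in the pooled list, 11.7 in replicate 1 and 14.8 in replicate 2. A candidate of 16.5 lay in lin-61 at 573 bp. met-1, the longest gene of the set at 10503 bp, had 3 pooled candidates in its body, none above 8.55. None of the members' introns held a final summit either. With a final body summit in only 5.82% of coding genes, this absence is not read as a trait of the members.

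By chromosome the counts of members were too small for any unevenness to be read from them. All 3 members on chromosome I were marked, where 22.9% of coding genes were, and 1 of 3 on chromosome III, where the share was 24.2%. mes-2 on chromosome II and mes-6 on chromosome IV were marked, with shares of 15.3% and 15.0%. mes-4 on chromosome V (11.8%) and hpl-1 on the X (16.4%) were not. A same-strand coding gene ended within 500 bp upstream of met-1, met-2 and hpl-2, and 1 of these 3 was marked, against 5 of the 7 others. Over all coding genes the shares were 12.1% of 3615 and 17.8% of 16358. Such closely spaced genes include those of operons, whose downstream members often have no promoter of their own. No operon annotation was used, and whether operons bear on these counts was not tested.

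Further genes of repressive chromatin were counted from a list of 48, all of which were found in the annotation. The list takes in demethylases, chromodomain readers, nuclear RNAi factors, subunits of the NuRD deacetylase complexes and genes such as his-24 for a linker histone. Not all of these are repressors in the strict sense, so the count is not one of repressors alone. Of the 48, 16 (33.3%) were marked, against the 16.8% of all coding genes given above. Another 11 had only a pooled candidate within 500 bp, and 21 had none. The 16 were lin-53, sor-1, jmjd-1.2, sor-3, mrg-1, cec-5, dcp-66, nrde-4, mep-1, his-24, cec-3, sir-2.1, set-6, utx-1, arle-14 and set-17. Their median signal was 279, and the summit was upstream in all 16, at a median of -238 bp.

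The highest signal was at lin-53, which encodes a histone-binding protein of the RbAp46/48 family, with 852 (rank 158), 412 in replicate 1 and 441 in replicate 2. At rba-1, its close paralog next to it on the same strand, the pooled candidate had a signal of only 14.5. sor-1 and sor-3, known for Hox gene repression, had signals of 800 (rank 187) and 706 (rank 268). jmjd-1.2, which encodes a histone demethylase, had 759 (rank 211), and mrg-1, for a chromodomain protein of the MRG15 family that is needed in the germline, had 626 (rank 369). Each of these 5 was above the highest member value, the 507 of met-1, but only the sor-1 summit had no other gene's 5' end nearer to it. The summit of lin-53 was nearer nra-2, that of sor-3 nearer C04E7.7 and a transfer RNA gene, that of mrg-1 nearer spcs-2 and that of jmjd-1.2 nearer F29B9.11. cec-5, for a chromodomain protein, followed with 446 (rank 750), dcp-66, for a NuRD subunit, with 288 (rank 1572), and nrde-4, for a nuclear RNAi factor, with 281 (rank 1641).

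Families within the list were tallied after the values had been seen, and their differences were not tested. Of 7 demethylase genes 2 were marked, utx-1 and jmjd-1.2, of 6 cec chromodomain genes 2, cec-3 and cec-5, and of 6 SET domain genes 2, set-17 and set-6. Of the 5 nuclear RNAi genes nrde-1 to nrde-4 and hrde-1, 1 was marked, and of the 3 histone deacetylase genes hda-1, hda-2 and hda-3 none was. The share over all coding genes was 16.8%, and these families are too small to be told from it. set-32, another gene for an H3K9 methyltransferase, had no pooled candidate within 500 bp, nor did lin-65, whose product works with MET-2. arle-14, for another MET-2 partner, was marked with a signal of 101, while met-2 itself was not. chd-3 had a pooled signal of 69.1, just below the lowest final value of 71.7. Several of the summits were shared with a nearer gene. With each summit given to its nearest 5' end, 11 of the 48 were marked, against 12.1% of coding genes by that rule. Those lost were lin-53, sor-3, mrg-1, cec-5 and mep-1. jmjd-1.2 then kept only a weaker summit at -283 bp, with a signal of 328 (rank 1257), below the 507 of met-1. The unmarked genes named here, such as rba-1, chd-3, set-32 and lin-65, were singled out after their values had been seen.

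**Figure D4:**
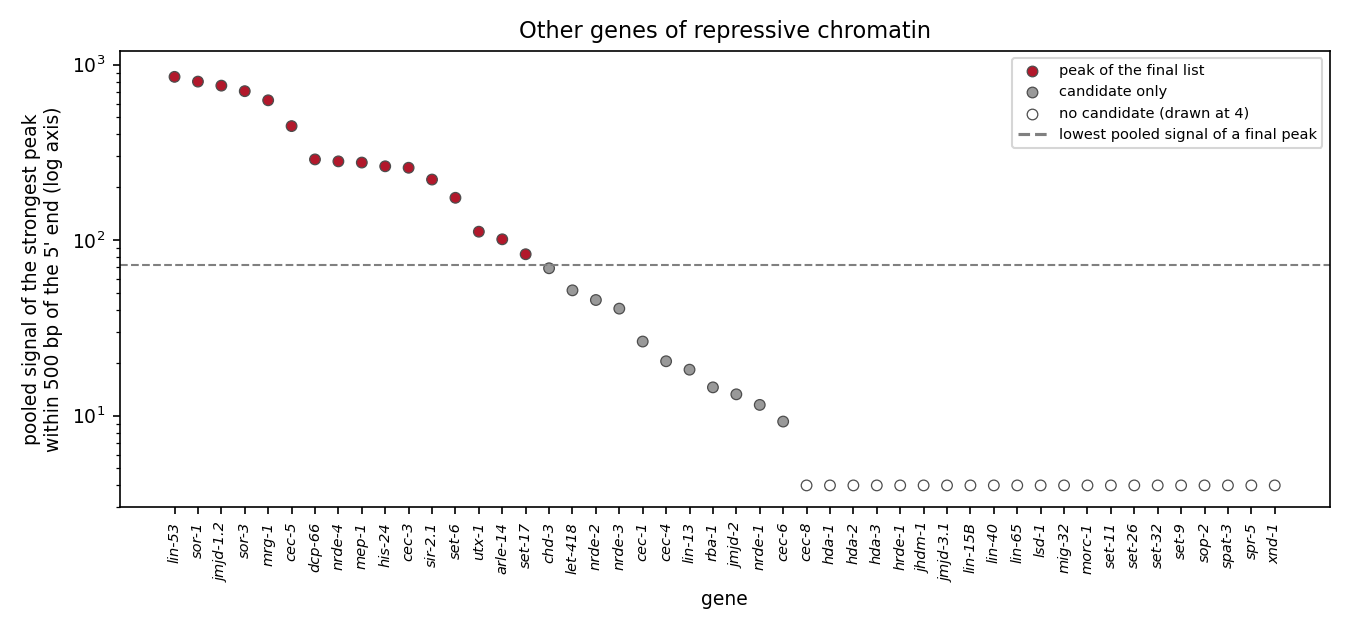
Pooled signal of the strongest peak within 500 bp of the 5' end, on a log axis, for each of the 48 further genes, coloured by whether the peak is of the final list (red), a candidate only (grey) or absent (open, drawn at the foot). The 16 red points run from 852 at lin-53 to 83.1 at set-17, and chd-3 lies directly below the dashed line at 71.7.

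snu-23 itself, which the transgene also carries, had a final peak at -71 bp with a signal of 119 (rank 4394), 55.4 in replicate 1 and 62.1 in replicate 2. Its level was between those of mes-3 and lin-61. Reads from the transgene copy and from the genomic locus cannot be told apart in these lists.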

How the data were processed

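Per the labels, 2 biological replicates of anti-GFP ChIP-seq were deposited with peak lists on 2 genome builds; those on ce11 were used, and those on ce10 were left out because no reference of that build was used. Per the deposited file descriptions, the final list passed the authors' test of reproducibility between replicates (IDR, optimal set), and the candidate lists are its input, background included. Each deposited peak row gives a signal value, a -log10 q-value and a summit offset, all as the authors computed them. Which peak caller, aligner and control served is not given in the sources used here, and sequencing depth is unknown, so no interval or floor is given. Signals come from lists scaled separately and were compared within a list, except in the ratios of replicate 2 over replicate 1. Those ratios were set beside the median ratio of all matched final peaks. The column of p-values was not used.

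Summits were placed against Ensembl release 115 genes with Python 3.11.15, pandas 2.3.3 and numpy 2.4.6. A 5' end is the outermost annotated base of the gene. Final and replicate peaks were matched where the final summit lay inside the replicate peak, taking the nearest summit. Counts were set beside the same share of all 19973 coding genes, with no test. The code was tested on simulated data. The 5 words named in the text were sought on both strands of 300 bases upstream, and overlapping matches of a word were each counted. For met-1, met-2 and hpl-2 the stretches searched were shorter, at 57, 127 and 93 bases. Shares over all coding genes are for full 300-base windows, so a word missing at these genes is not comparable with them.

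The members and the further genes were chosen with earlier results of these data known. All members are named with every final peak, with the strongest candidates, and with any gene whose 5' end shares the summit. Of the further genes, all marked ones are named, with values for the 8 of highest signal, and snu-23 is added. Other genes with values were named after these had been seen. Alternatives tried were all pooled candidates, the stronger 3337 final peaks, a single replicate, windows of 250 and 1000 bp, the nearest 5' end, any overlap, RefSeq gene ends, the start codon and other rules for matching.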

Additional observations from a re-analysis of the deposited data

How the results depend on the processing

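Of 25 alternative values, 20 stayed within 1.5 times the count reported or within a spread, and 5 moved. The spread was that between replicates for the distance, and the SD of 0.16 over the 5 matched members for the log2 ratio. None reversed, but a count of genes cannot reverse. Member counts with summits inside genes repeated those at the 5' end where both were tried. The lowest count of members, 4, lay at the limit of 1.5 times, and the share of coding genes changed with the setting too. The count of marked members ran from 4 with the stronger 3337 peaks of the final list, which dropped mes-3 and set-25 (10.8% of coding genes), to 8 with all pooled candidates, which added met-2 and hpl-1 (33% of coding genes). It was 6 without replicate 1 (17%) and 7 without replicate 2 (17.1%), 5 with a window of 250 bp, which dropped lin-61, and 6 with 1000 bp. Of the members with a final summit at the 5' end or inside the gene, 6 in all, any overlap of the peak instead gave 7 (23% of coding genes), because the peak at the 3' end of hpl-1 reaches into the gene, and RefSeq gene ends gave 6 (20.9%). Of the 48 further genes, 27 were marked with all pooled candidates, 10 with a window of 250 bp and 26 with 1000 bp, against 16. Over all coding genes the windows of 250 and 1000 bp gave 11.4% and 21.4%. Leaving out a replicate gave 16 to 17 of them. The median summit distance of the marked members, -127 bp, was -175.5 bp from the start codon, which lies inside the gene by construction, and ran from -154 to -128 bp when 1 replicate was left out. Their median log2 ratio of replicates, 0.19, was 0.16 to 0.19 under other rules of matching. No paired analysis was possible because the replicates belong to 1 group. The depth is unknown, so whether hpl-2, or mes-4 in replicate 1, was short of reads or of signal cannot be told apart.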

Other observations

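Other short words in the upstream stretches, which for met-1, met-2 and hpl-2 were shorter than 300 bases, were counted as a description only. GAGAGA, on either strand, was in the stretches of mes-2, mes-3, lin-61 and hpl-1, in mes-3 in 7 overlapping places, and in 21.6% of the 300-base stretches of all coding genes. Of coding genes with it 25.1% were marked, and of those without it 14.5%. TATAAA was in the stretches of mes-4 and set-25 and in 39.6% of all, with 15.2% of such genes marked and 17.8% of the others. TTTCAG was in the stretches of mes-4, set-25 and hpl-2 and in 48.0% of all, with 17.7% marked and 15.9% of the others. The share of G and C in the members' stretches ran from 26.9% at hpl-2 to 52.6% in the 57 bases before met-1, and the median over all coding genes was 33.3%. Downstream of set-25, a pooled candidate with a signal of 11.2 lay 150 bp past the 3' end, and replicate 1 had one of 12.6 at 71 bp, while replicate 2 had none.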
